A study of Mus musculus with 2 samples.

Results

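Serpins and the genes of the plasminogen system were taken from the count table by name: those whose symbol begins with Serpin, leaving out the collagen chaperone Serpinh1, together with Plau, Plaur, Plat and Plg. These are 71 of 49492 genes. They comprise 6 genes of the a1 family, 14 of the a3 family and 9 other genes of clade A, and 4 of the b1, 4 of the b3, 5 of the b6 and 7 of the b9 family with 8 other genes of clade B. Clades C, D and G hold 1 gene each, and clades F and I hold 2 each.

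Serpins are protease inhibitors that trap their target enzyme by offering a loop as bait, and a few of them have lost this activity and serve as hormone carriers or signals. The plasminogen system is one of their main targets. Its activators, the urokinase Plau and the tissue activator Plat, cut the zymogen plasminogen (Plg) into plasmin, which degrades fibrin and matrix, and the receptor Plaur holds urokinase at the cell surface. In the mammary gland this system is known for its part in tissue remodelling, and the serpin Serpinb5 (maspin) is a known product of the myoepithelial layer.

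Basal cells from the mammary glands of adult female WT mice were sorted as CD24+ CD29hi cells and grown in 3D matrix gel in a medium with EGF and ITS. The ctrl library is from the colonies of such cells grown alone. The M2 library is from cells that shared the well for 11 to 14 days with bone marrow macrophages. These macrophages were polarised with IL-4 and IL-13 and kept in a porous insert. By flow cytometry, the paper found mostly luminal cells in the colonies and organoids of both cultures, and a larger share of basal cells with M2. How many mice or wells went into a library is not stated in the labels. Each group is 1 library, so the spread between cultures is unknown, and a change in the number of cells of a type cannot be told apart from a change in RNA per cell.

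Depth was 26912610 reads for ctrl and 29413844 for M2. Levels are given as CPM (counts scaled to library size) after TMM scaling, and levels of different genes are compared only per kb of exonic length. A gene was called higher or lower where the exact binomial test on its reads gave an adjusted p under 0.05 over all genes tested and the difference was at least 2-fold, so a call compares these libraries and not the conditions. Positions are those of the count table, on GRCm38. The markers of basal cells summed to 7466 CPM in ctrl and 7493 CPM in M2, with 1 of 6 called lower (Oxtr). The luminal markers summed to 3134 and 2962 CPM, with 2 of 6 called lower (Esr1 and Elf5).

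Of the 71 genes, 25 had at least 10 reads over both libraries and were tested. In the M2 library 11 of these were called higher, or 44%, against 8.16% of all 19233 genes tested. In the other direction 2 were called lower, or 8%, against 6.55% of all genes tested. The median log2 fold difference of the 25 genes was 0.57 (quartiles -0.15 and 2.66), and that of all genes tested was -0.0032 (quartiles -0.32 and 0.35). Among the genes called higher were Plau, Plaur, Serpine2, Serpinb2, Serping1 and 5 genes of the a3 family, and those called lower were Serpinb9 and Serpini1. As a share of the whole library, the 71 genes made up 0.0659% for ctrl (95% Wilson interval 0.0649 to 0.0669) and 0.109% for M2 (0.108 to 0.110).

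**Figure D1:**
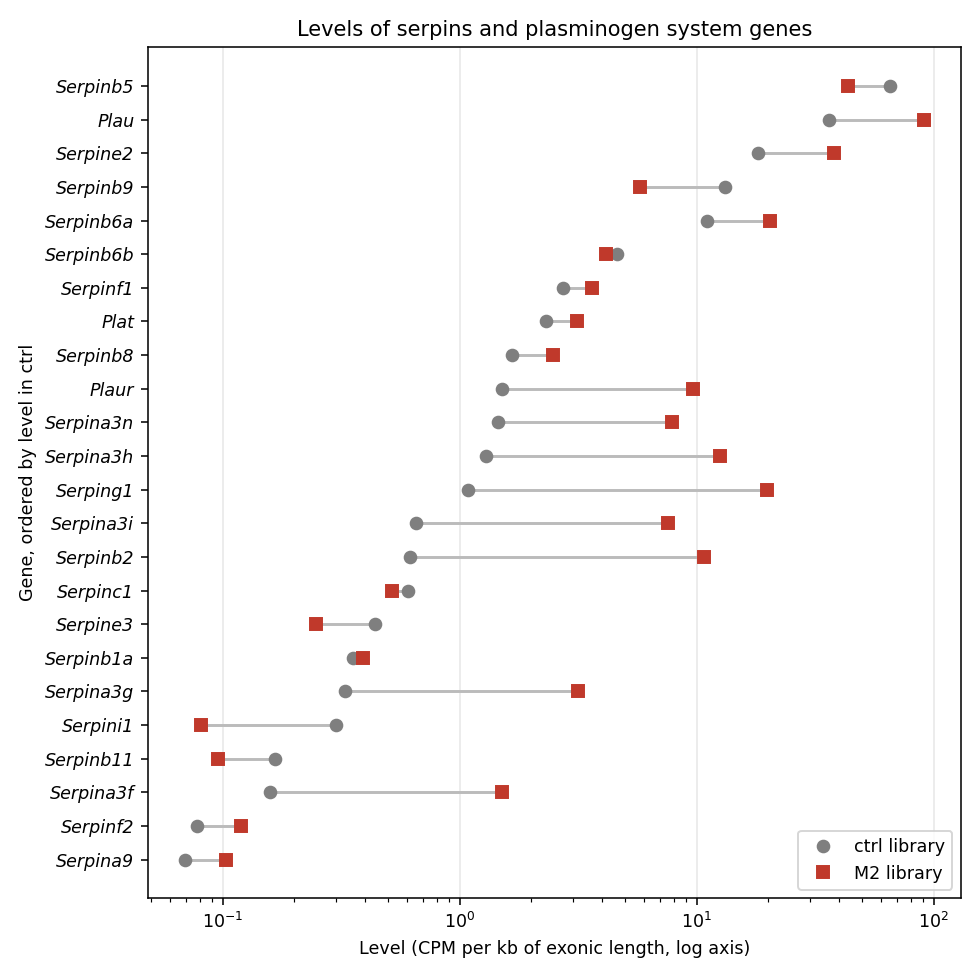
Level of 24 of the genes tested, in CPM per kb of exonic length on a log axis, in the ctrl library (circles) and the M2 library (squares), with genes ordered by their level in ctrl. Serpinb5, Plau and Serpine2 lie at the top in both libraries, and the longest connecting lines belong to Serping1, Serpinb2 and the 4 genes Serpina3f to Serpina3i.

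To compare the members' levels, reads were divided by exonic length. Serpinb5 stood first in ctrl with 65.6 CPM per kb and second in M2 with 43.5. Plau stood second in ctrl with 36.3 and first in M2 with 91.0, a level above that of 97.0% of the genes tested in that library. Serpine2 held the third place in both, with 18.1 CPM per kb in ctrl and 37.8 in M2. Serping1 went from place 14 (1.08 CPM per kb) to place 6 (19.9), and Serpinb2 from place 16 (0.620) to place 8 (10.7). Serpinb9 went the other way, from place 5 (13.2) to place 12 (5.79).

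The activators of plasminogen were examined first. Plau (chromosome 14, 20836662 to 20843388) counted 2336 ctrl and 6147 M2 reads, or 85.0 and 213 CPM. It was called higher, with a log2 fold difference of 1.33 (95% interval 1.26 to 1.40). Plat (chromosome 8, 22757727 to 22782844), the activator best known from the clotting system, had 398 and 565 reads and a difference of 0.44 (0.25 to 0.63), and was not called. Per kb, Plat stood at 0.0640 of Plau in ctrl against 0.0345 in M2, a shift on the log2 scale of -0.89 (-1.09 to -0.69). Urokinase was thus the main activator transcript in both libraries. Plg, the zymogen itself, had 0 reads in both, which allows up to 0.109 CPM in ctrl and 0.104 CPM in M2. It is made mainly by the liver, and the 4 hepatocyte markers summed to 9 ctrl reads and 1 M2 read, with Alb and Hnf4a at 0 in both libraries and 8 of the ctrl reads from Ttr.

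Plaur (chromosome 7, 24462484 to 24475968), the urokinase receptor, counted 109 ctrl and 726 M2 reads. It was called higher with a log2 fold difference of 2.66 (2.37 to 2.97), the largest among the plasminogen genes. The ratio of Plaur to Plau reads per kb was 0.0418 in ctrl against 0.106 in M2, a shift on the log2 scale of 1.34 (1.04 to 1.64). Receptor and ligand transcripts were therefore both higher in the M2 library, the receptor by more. With a biological variation (coefficient of variation between cultures) of 0.4 assumed in edgeR, neither Plau nor Plaur passed the threshold.

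The inhibitors of the activators went different ways. Serpine2 (chromosome 1, 79794197 to 79861180), known as protease nexin-1, an inhibitor of thrombin and urokinase, counted 4125 ctrl and 9027 M2 reads. Its log2 fold difference was 1.06 (1.01 to 1.11), just past the 2-fold threshold. The call ended with a biological variation of 0.2 assumed in edgeR.

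Set against urokinase, Serpine2 was lower in the M2 library. Its reads per kb were 0.499 of those of Plau in ctrl against 0.415 in M2, a shift on the log2 scale of -0.27 (95% interval -0.35 to -0.18). Such a ratio within a library does not depend on scaling. The markers of fibroblasts, a cell type that is known to make Serpine2, summed to 330 CPM in ctrl and 134 CPM in M2. Of these 7 markers, 3 were called lower (Col1a2, Col3a1 and Pdgfrb) and 1 higher (Dcn, 51 and 157 reads). Pdgfra had 607 and 822 reads and was not called. The sum is led by the collagens Col1a1, Col1a2 and Col3a1, so it says little of the other markers. The part of fibroblasts in the values of Serpine2 was not tested.

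Serpinb2 (chromosome 1, 107511423 to 107535478), known as PAI-2 and mostly kept inside the cell, counted 40 ctrl and 724 M2 reads. It was called higher with a log2 fold difference of 4.08 (3.65 to 4.61), or 16.9-fold. Per kb it stood at 0.0171 of Plau in ctrl and 0.118 in M2. Its difference was thus larger than that of Serpine2, yet in M2 its level per kb (10.7 CPM) was below that of Serpine2. In the table, 12.4% of its exonic bases are shared with Serpinb10 on the same strand, which had 1 and 4 reads.

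Serpinb2 and Plaur are also known as transcripts of activated macrophages. The 12 macrophage markers summed to 10.1 CPM in ctrl and 11.9 CPM in M2. Of these, 5 were tested, with a median log2 fold difference of 1.25. In M2, 2 of the 5 were called higher (Aif1 with 3 and 40 reads, Cd163 with 2 and 30) and 0 lower. Of all genes tested, 8.16% were called higher and 6.55% lower. Adgre1, Tyrobp, Fcer1g and C1qb were at 0 in each library, and Lyz2 had 3 ctrl reads and 1 M2 read. Itgam had 3 ctrl and 9 M2 reads and was not called. Mrc1 had 1 and 5 reads and C1qa 0 and 2. Most reads of the list came from Cd68 (170 and 165) and Csf1r (94 and 92), and their part in the values of Serpinb2 and Plaur was not tested.

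Serpini1 (chromosome 3, 75557547 to 75643495), neuroserpin, an inhibitor of the tissue activator, was called lower. It counted 60 ctrl and 17 M2 reads, for a log2 difference of -1.83 (-2.76 to -1.09). The call ended with a biological variation of 0.4 assumed in edgeR, with a 4-fold threshold and with a filter of 1 CPM in both libraries. Serpine3 had 17 and 10 reads and Serpinf2, the inhibitor of plasmin, had 5 and 8, and neither was called. Serpina5, the protein C inhibitor, had 0 reads in both libraries. At the depth of these libraries no statement on plasmin's own inhibitor could be made.

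**Figure D2:**
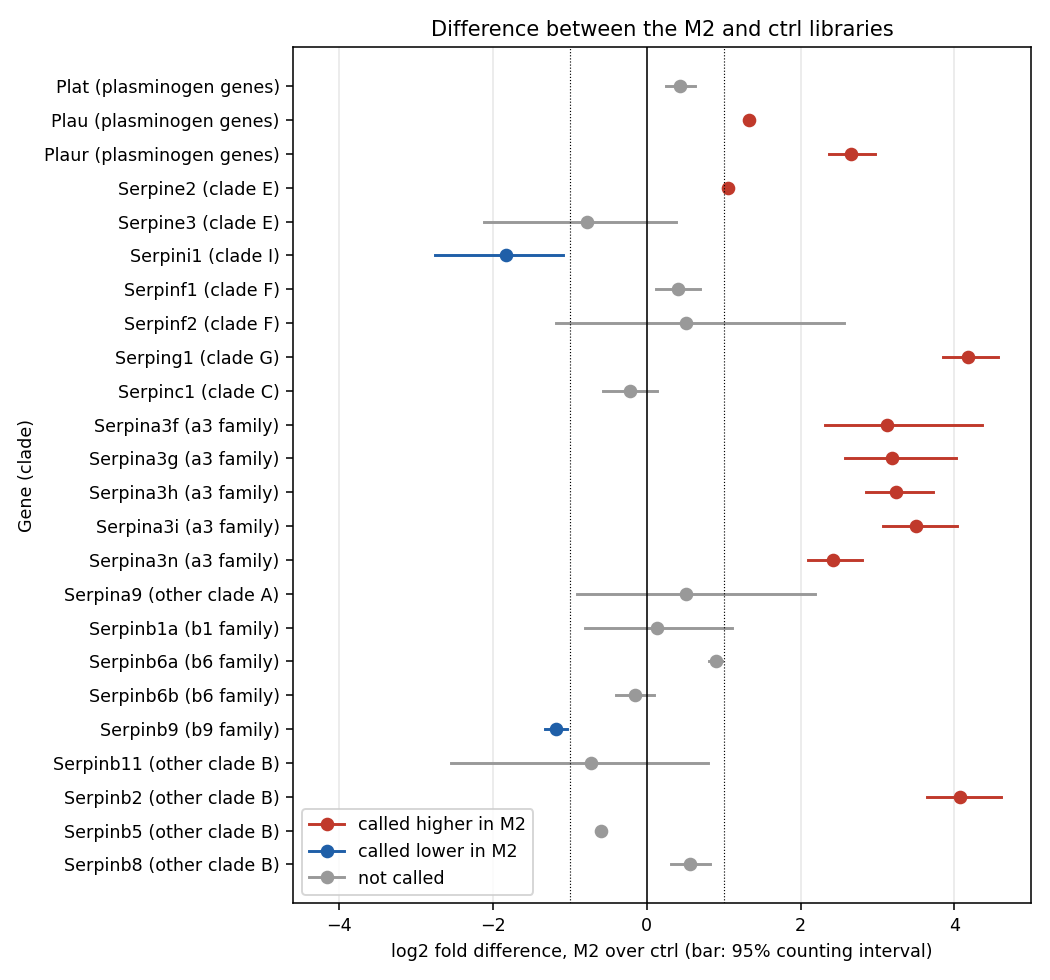
Log2 fold difference (M2 over ctrl) of 24 of the genes tested, ordered by clade, with points for the estimate and bars for the 95% counting interval. Dotted lines mark a 2-fold difference, and the points beyond 2 on the right are Plaur, Serping1, Serpinb2 and the 5 genes of the a3 family.

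The a3 family is a row of duplicated genes on chromosome 12 that corresponds to the single human gene of antichymotrypsin, an acute phase inhibitor of chymotrypsin-like and other serine proteases. In mice, Serpina3n is known as an inhibitor of granzyme B and Serpina3g as an inhibitor of cathepsins inside cells. Of 14 genes, 5 were tested, and all 5 were called higher. The other 9 had at most 7 reads over both libraries, and 4 of them had 0 in both. Without regard to how reads were divided among paralogs, the family summed to 203 reads for ctrl and 1774 for M2, for a log2 difference of 3.05 (95% interval 2.85 to 3.27).

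**Figure D3:**
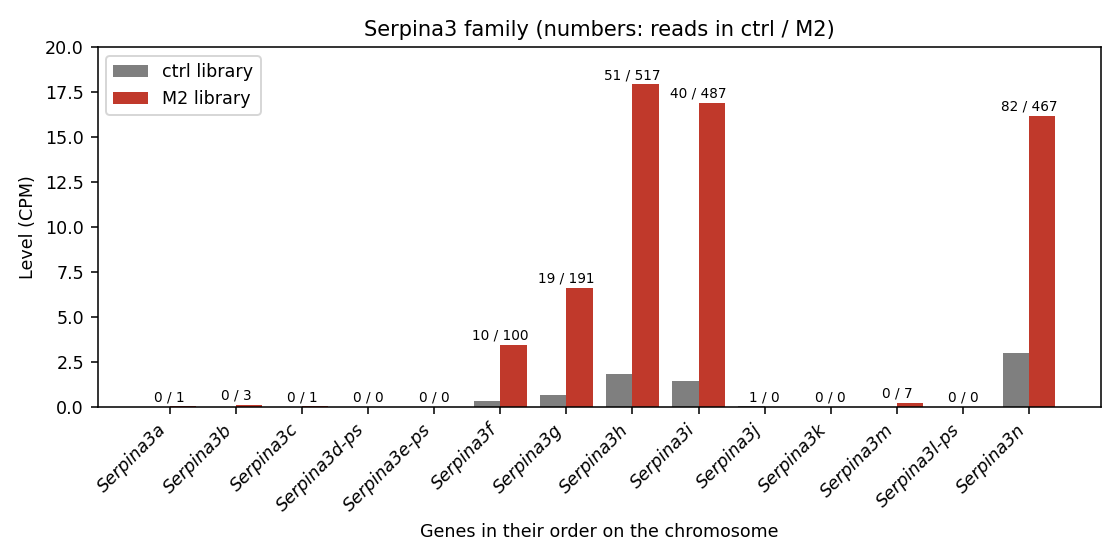
Level in CPM of the 14 genes of the a3 family, in their order along chromosome 12, in the ctrl library (grey bars) and the M2 library (red bars), with reads in ctrl and M2 written above each pair. The 4 neighbours Serpina3f to Serpina3i and, farther along, Serpina3n carry nearly all reads. The bars are not divided by gene length and compare the libraries within a gene.

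Serpina3n (104406729 to 104414329) had the most reads of the family in ctrl, 82 against 467 in M2, and a log2 fold difference of 2.43 (2.10 to 2.80). Serpina3i (104263122 to 104269372) had 40 and 487 reads and a difference of 3.50 (3.07 to 4.04). Serpina3h (104247905 to 104253669), which GENCODE M21 lists as a transcribed pseudogene, had 51 and 517 reads and a difference of 3.25 (2.86 to 3.72). Per kb, Serpina3h stood at 12.5 CPM in M2, above Serpina3n with 7.85 and Serpina3i with 7.60, and in ctrl Serpina3n was ahead of Serpina3h with 1.45 against 1.30. Serpina3g had 19 and 191 reads (3.19, 2.58 to 4.02) and Serpina3f had 10 and 100 reads (3.13, 2.31 to 4.36). The intervals of the 4 neighbours overlapped each other, and that of Serpina3n lay below those of Serpina3h and Serpina3i. Accordingly, Serpina3n took 40.4% of the family's reads in ctrl (95% Wilson interval 33.9 to 47.3) against 26.3% in M2 (24.3 to 28.4).

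How far these paralogs could exchange reads was checked on their transcripts. Of all words of 100 bases, 3.40% in Serpina3f, 3.49% in Serpina3g, 3.60% in Serpina3h and 2.25% in Serpina3i also occur in transcripts of another gene, and 0.204% in Serpina3n. With words of 50 bases the shares were 10.6%, 15.5%, 21.9%, 15.9% and 6.90%. The split of reads among Serpina3f to Serpina3i is therefore less certain than the value of Serpina3n or the family sum. The read length and the treatment of reads with several matches are not given in the sources used here.

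Because the 4 protein-coding genes among these 5 differed in the same direction, their upstream sequences are shown. Each is the plus strand of GRCm38.p6 from RefSeq, 250 bases up to the base before the RefSeq start. Capitals mark full matches to TTCNNNGAA (a palindrome bound by STAT factors) or to the NF-κB motif. That motif was written as GGGRNNYYCC, with R for A or G, Y for C or T and N for any base. Near matches were not searched for, so a stretch in small letters can still resemble either pattern. The windows are chr12:104214294-104214543, chr12:104235897-104236146, chr12:104262872-104263121 and chr12:104406458-104406707. Serpina3h had no entry.
Serpina3f: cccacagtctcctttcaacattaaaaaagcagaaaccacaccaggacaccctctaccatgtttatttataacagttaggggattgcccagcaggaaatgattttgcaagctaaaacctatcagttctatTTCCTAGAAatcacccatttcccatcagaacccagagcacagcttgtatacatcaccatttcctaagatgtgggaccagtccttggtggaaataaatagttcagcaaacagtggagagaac
Serpina3g: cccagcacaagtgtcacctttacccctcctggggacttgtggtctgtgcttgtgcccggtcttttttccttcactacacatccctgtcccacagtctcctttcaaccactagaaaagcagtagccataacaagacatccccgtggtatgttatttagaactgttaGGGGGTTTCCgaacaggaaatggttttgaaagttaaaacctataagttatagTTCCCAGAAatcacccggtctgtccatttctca
Serpina3i: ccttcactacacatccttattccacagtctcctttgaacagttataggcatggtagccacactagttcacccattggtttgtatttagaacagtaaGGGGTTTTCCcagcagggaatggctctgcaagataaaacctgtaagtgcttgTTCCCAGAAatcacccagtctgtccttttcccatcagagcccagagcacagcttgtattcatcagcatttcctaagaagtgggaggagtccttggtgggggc
Serpina3n: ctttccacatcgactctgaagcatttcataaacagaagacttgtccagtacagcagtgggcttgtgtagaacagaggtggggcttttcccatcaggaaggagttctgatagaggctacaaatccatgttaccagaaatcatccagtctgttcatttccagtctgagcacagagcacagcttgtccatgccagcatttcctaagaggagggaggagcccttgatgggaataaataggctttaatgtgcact

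In Serpina3g and Serpina3i an NF-κB match precedes a TTCNNNGAA match, with 42 bases between them in both genes. The TTCNNNGAA match lies 33 to 25 bases before the start of Serpina3g and 102 to 94 bases before that of Serpina3i. Serpina3f holds a full match only to TTCNNNGAA, 121 to 113 bases before the start shown, and Serpina3n holds no full match to either pattern. Over all 32851 RefSeq windows of this length, 7.02% hold TTCNNNGAA, 7.25% hold the NF-κB motif on either strand, and 0.499% hold both. Among members, 10 of 62 windows hold TTCNNNGAA, where overlapping windows of Serpina3f and of Serpina11 count the same site more than once. They include those of Serpina1f, Serpina11 and Serpinb9c, which had no reads, and of Serpinb6a, which was not called. The NF-κB motif is in 2 of the 62 member windows, those of Serpina3g and Serpina3i. The best ungapped alignment of these windows gave 64.8% identity over 162 bases for Serpina3f and Serpina3g, 58.6% over 181 bases for Serpina3g and Serpina3i, and 51.5% over 229 bases for Serpina3i and Serpina3n. The other 3 pairs had 47.6% (Serpina3f and Serpina3i), 40.3% (Serpina3f and Serpina3n) and 37.5% (Serpina3g and Serpina3n). These genes arose by duplication, so shared letters are not independent of each other. A match is a description of the sequence and shows no binding.

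For comparison, the upstream sequences of the urokinase receptor and of Serpinb2 are given in the same way (chr7:24462233-24462482 and chr1:107511173-107511422), with capitals for TGANTCA, the palindrome bound by AP-1 factors. The match lies 69 to 63 bases before the start of Plaur and 94 to 88 bases before that of Serpinb2. RefSeq lists another, overlapping window for Serpinb2 that also reaches TTCNNNGAA.
Plaur: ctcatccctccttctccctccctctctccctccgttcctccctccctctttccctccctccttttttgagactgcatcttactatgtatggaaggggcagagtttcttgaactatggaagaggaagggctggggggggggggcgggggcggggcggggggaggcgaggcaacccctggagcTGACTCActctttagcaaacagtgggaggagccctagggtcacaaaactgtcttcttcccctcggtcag
Serpinb2: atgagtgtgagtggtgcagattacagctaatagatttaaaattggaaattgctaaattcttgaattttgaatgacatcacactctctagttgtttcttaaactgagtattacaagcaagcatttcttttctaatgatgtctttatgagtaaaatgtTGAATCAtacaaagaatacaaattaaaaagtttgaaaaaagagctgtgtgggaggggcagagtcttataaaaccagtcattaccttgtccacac

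TGANTCA occurs in 6.75% of all windows and in 13 of the 62 windows of the 53 members with an entry. The overlapping windows of Serpinb2 count the same site more than once. Windows with the match include those of Serpinb5 and Serpinb8, which were not called, and of 4 genes of the a1 family without a read.

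The rest of clade A had few reads. The 6 genes of the a1 family, which encode antitrypsins of the liver, had 0 reads in both libraries. Of the 9 other genes of clade A, only Serpina9 was tested, with 7 reads in ctrl and 11 in M2, and it was not called. The hormone carriers Serpina6 and Serpina7 had 0 reads in both. The a3 family thus held 1774 of the clade's reads in M2, while all other genes of clade A together held 14.

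Serping1 (chromosome 2, 84765387 to 84775444), the inhibitor of the complement proteases C1r and C1s and of kallikrein, showed the highest log2 fold difference of the 25 genes, with an interval that overlaps that of Serpinb2. It counted 69 ctrl and 1332 M2 reads, for a log2 difference of 4.18 (3.85 to 4.57), or 18.2-fold. Of the proteases it blocks, those of complement were called higher as well. C1s1 counted 272 ctrl and 7103 M2 reads (4.63, 4.46 to 4.82), and C1ra had 95 and 1147 reads (3.51, 3.22 to 3.84). The kallikrein gene Klkb1, with 26 and 52 reads (0.90, 0.23 to 1.67), was not called. Per kb, Serping1 stood at 19.9 CPM in M2, above C1ra with 13.4 and below C1s1 with 78.8. The calls of Serping1, Serpinb2, Serpina3h and Serpina3i were kept with a biological variation of 0.4 assumed in edgeR, and those of the other 7 genes called higher were not.

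Other secreted serpins did not pass the threshold. Serpinf1, an anti-angiogenic factor known as PEDF without inhibitor activity, counted 176 ctrl and 245 M2 reads (0.41, 0.12 to 0.70). Serpinc1, antithrombin, had 142 and 128 reads (-0.22, -0.57 to 0.14). In the table, 34.4% of the exonic bases of Serpinc1 are shared with Zbtb37 on the opposite strand, a gene with 1165 and 702 reads, and without known use of strand the reads of both cannot be told apart. Serpind1, heparin cofactor II, had 0 and 1 reads.

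Clade B holds the serpins that mostly stay inside the cell. Serpinb5 (chromosome 1, 106861173 to 106883348), maspin, counted 4953 ctrl and 3448 M2 reads, for a log2 difference of -0.59 (95% interval -0.65 to -0.53). It was lower in M2 by reads but under the 2-fold threshold and was not called. Its share of the reads of all 71 genes was 27.9% in ctrl (95% Wilson interval 27.3 to 28.6) against 10.7% in M2 (10.4 to 11.1). This share also depends on the other members, as the 71 genes together made up 0.0659% of the ctrl library and 0.109% of M2. The log2 difference above is the measure of Serpinb5 itself. The basal markers Krt14 and Krt5 had differences of -0.32 and 0.50, and none of the 6 basal markers but Oxtr was called. Maspin transcripts were thus abundant in both libraries.

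Serpinb9 (chromosome 13, 33003250 to 33017957), the inhibitor of granzyme B that protects cells from cytotoxic granules, was called lower. It counted 1262 ctrl and 583 M2 reads, for a log2 difference of -1.18 (-1.33 to -1.04), and the call ended with a biological variation of 0.2 assumed in edgeR. Of the reads of the b9 family, 99.5% belonged to Serpinb9 in each library, and the 6 other genes of the family had at most 8 reads over both. Words of 100 bases shared with other genes were 0% of its transcripts. Its target Gzmb had 0 reads in both libraries.

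The b6 family was carried by Serpinb6a and Serpinb6b. Serpinb6a, an inhibitor of cathepsin G and other proteases, counted 1634 ctrl and 3186 M2 reads, for a log2 difference of 0.89 (0.81 to 0.98), just under 2-fold. Serpinb6b had 279 and 263 reads (-0.15, -0.40 to 0.09). The family sum of 0.78 (0.70 to 0.86) therefore follows Serpinb6a, and without it the sum was -0.16. Exons of 3 genes on the opposite strand, Nqo2, Ripk1 and 1110046J04Rik, cover 14.1%, 4.46% and 10.8% of the exonic bases of Serpinb6a. They had 261, 1555 and 53 reads in ctrl and 328, 1619 and 150 in M2.

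Serpinb8, an inhibitor of furin, counted 219 ctrl and 341 M2 reads (0.57, 0.32 to 0.82) and was not called. Serpinb1a, an inhibitor of neutrophil elastase, had 19 and 22 reads, and Serpinb11 had 10 and 6. The other 4 clade B genes outside the named families had few reads or none. Among these were Serpinb7 and Serpinb13, which are known from stratified epithelium and had 0 reads in both libraries, and Serpinb12 with 1 and 3. Of the b3 family, squamous cell carcinoma antigens in human, only Serpinb3b had reads, 4 and 1. Squamous markers were present and differed between the libraries, with a sum of 155 CPM in ctrl and 8.40 CPM in M2 and 7 of 8 tested called lower. Serpinb7, Serpinb12, Serpinb13 and the b3 family were thus at or near 0 also in the library with more squamous transcripts.

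Low counts were thus common in this set. Of the 46 genes that were not tested, 31 had 0 reads in both libraries and 15 had between 1 and 8 over both. Together these 46 genes held 21 reads in ctrl and 32 in M2. None of them was tested, and with a filter of 1 read in place of 10 Serpina3m, with 0 and 7 reads, was called higher as well.

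To place the serpins among the proteins that they act with, 49 partner genes were examined. Of these, 37 were tested, 7 were called higher (18.9%) and 2 lower (5.41%), against the 8.16% and 6.55% of all genes given above. Their median log2 fold difference was 0.26.

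**Figure D4:**
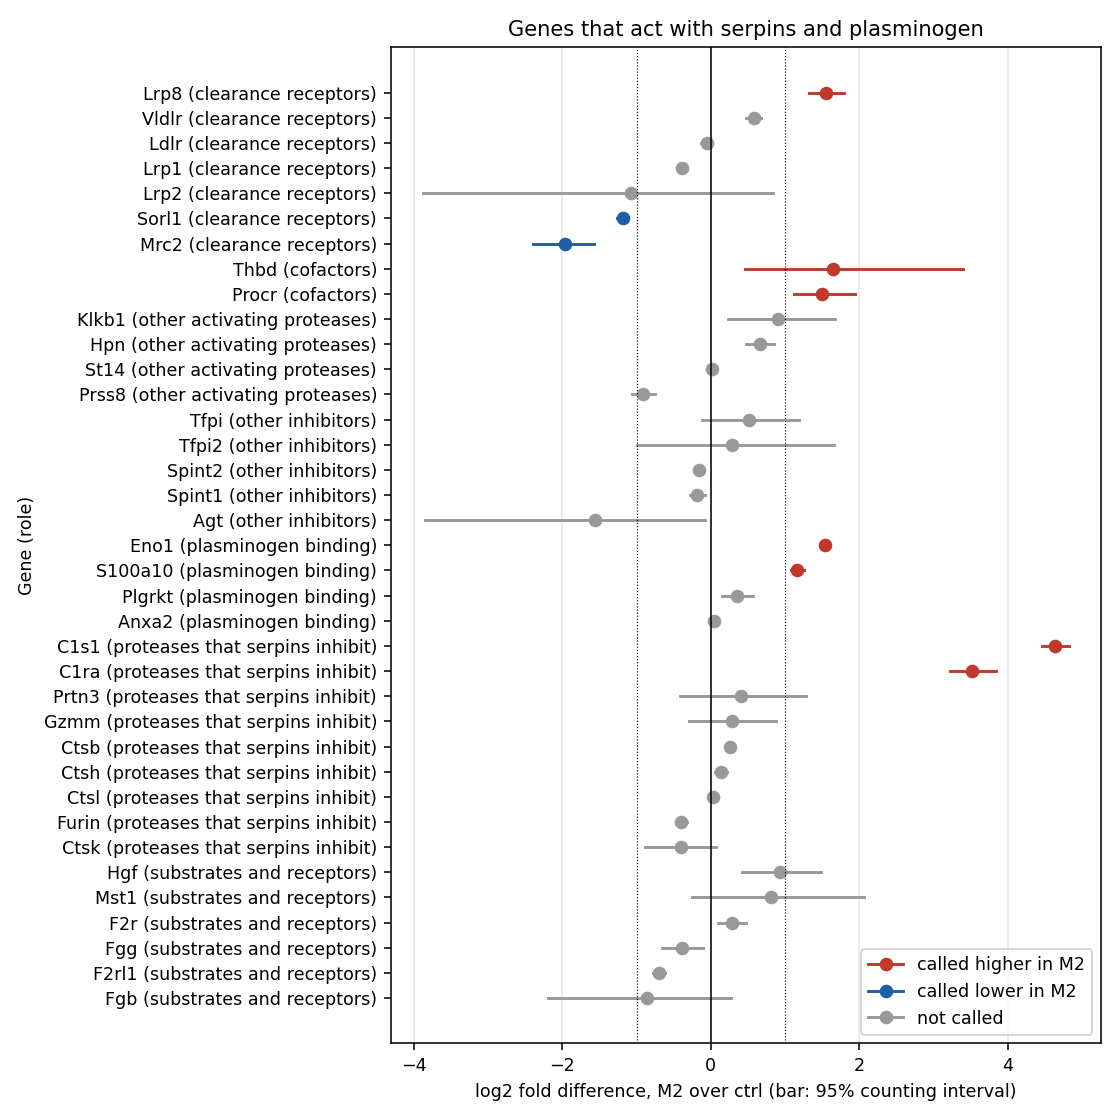
Log2 fold difference (M2 over ctrl) of the 37 partner genes tested, grouped by role, with points for the estimate and bars for the 95% counting interval. Dotted lines mark a 2-fold difference, and C1s1 and C1ra, the proteases blocked by Serping1, lie farthest to the right.

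Among proteins that bind plasminogen at the cell surface, S100a10 counted 1596 ctrl and 3747 M2 reads and was called higher (1.16, 1.08 to 1.25). Its partner Anxa2, with which it forms the annexin A2 complex that docks plasminogen and its tissue activator, had 15067 and 16307 reads (0.04, 0.01 to 0.08) and was not called. Eno1, a glycolytic enzyme that also binds plasminogen, was called higher with 10735 and 32562 reads (1.53, 1.5 to 1.56). Transcripts of docking proteins were therefore present in both libraries, although Plg itself had no read. Protein was not measured.

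The receptors that clear serpin and protease complexes differed in both directions. Sorl1, with 4431 reads in ctrl and 2042 in M2 (-1.19, -1.26 to -1.11), was called lower. Mrc2, the uPAR-associated collagen receptor, was listed with these receptors and was called lower too, with 247 and 66 reads (-1.96, -2.39 to -1.58). Lrp8 had 199 and 615 reads and was called higher (1.55, 1.33 to 1.80). Lrp1, the main clearance receptor of complexes of urokinase with its inhibitors, had 6509 and 5213 reads (-0.39, -0.44 to -0.34), and Vldlr had 1326 and 2076 (0.58, 0.48 to 0.68), and neither was called. Of the genes listed as cofactors, Procr and Thbd were tested and both were called higher. Procr, the protein C receptor that the paper uses as a marker of mammary stem cells, had 68 and 204 reads (1.5, 1.11 to 1.93). Thbd had few reads, 6 and 22. The third gene of that list, Vtn, had 0 reads in both libraries.

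None of the 4 other activating proteases tested was called. St14 (matriptase), an activator of urokinase, counted 10517 ctrl and 11127 M2 reads (0.01, -0.03 to 0.05). Its Kunitz inhibitors Spint1 (-0.18, -0.28 to -0.09) and Spint2 (-0.15, -0.21 to -0.10) were not called either. Of the cathepsins, Ctsl, Ctsb and Ctsh had differences of 0.02, 0.26 and 0.14. Elane and Ctsg, the neutrophil proteases that several serpins inhibit, had 0 reads in both libraries. None of the 6 substrates and receptors tested was called, among them Hgf, which urokinase can activate, with 46 and 93 reads (0.93, 0.42 to 1.49), and the protease-activated receptor F2rl1, with 3600 and 2326 reads (-0.70, -0.78 to -0.62).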

How the data were processed

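RNA of 1 ctrl and 1 M2 library was sequenced. The values deposited by the authors are unnormalised counts of reads for 49492 genes. The submitters' processing notes name GRCm38 and mm10, and the aligner, the counter, the read filters and the use of strand are not given in the sources used here. Of the 71 members, 65 have the same start and end in GENCODE M21, which is on GRCm38, and all 71 overlap the gene of that name.

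From the counts, genes with at least 10 reads summed (19233) were tested across the whole table. Library totals were scaled by TMM in edgeR 4.0.16. The log2 fold difference is M2 over ctrl with a pseudocount of 1 read. The threshold for a call was an adjusted p of 0.05 (two-sided exact binomial test, scipy 1.17.1, Benjamini-Hochberg adjustment over the genes tested) together with a 2-fold difference. With 1 library per group, this compares those libraries and not the conditions. Fold differences carry 95% Clopper-Pearson limits, shares carry Wilson intervals, and limits of a change in a ratio use the normal approximation on the log scale. As molecular identifiers are not mentioned, intervals and the floor of 3 reads describe counting error alone. The functions were tested on simulated data.

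Alternatives were other scalings (total reads, the median of ratios of DESeq2 1.42.0, upper quartile), other pseudocounts and filters, a 4-fold threshold, and edgeR (exactTest) with the biological variation set to 0.1, 0.2 or 0.4.

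Members, clades, partner genes and marker lists were chosen with earlier results of these data known. Each member tested is named but 1, which is counted and not reported here. Partner genes are named where called and having 200 or more reads in a library, and any other was chosen after its values were seen, as were the promoters, the motifs and the lengths of the transcript words. Promoter sequences are from RefSeq (GRCm38.p6), where 53 of the 71 members matched. Only the 250 bases before a start were used. Transcript words of 50 and 100 bases were compared on both strands with all GENCODE M21 transcripts.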

Additional observations from a re-analysis of the deposited data

How the results depend on the processing

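No paired analysis was possible because there is only 1 library in each group, and for the same reason no replicate could be left out. The 25 members tested kept their direction under the 3 other scalings and both other pseudocounts, and 1 call was lost there, with total reads only. The same scaling gave -0.34 for the summed reads of the other clade B genes, against -0.28 (95% interval -0.33 to -0.22) with TMM. The sum of the b6 family reversed to -0.16 without Serpinb6a, and that of the other clade B genes to 1.92 without Serpinb5, because each gene holds most reads of its group.

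The numbers called moved most with the variation assumed. With a biological variation of 0.4 set in edgeR, 4 members were higher and 0 lower, against 175 and 130 of all genes and 2 and 0 of the partner genes. With 0.2, 1 member and 1 partner gene were lower, and 964 of all genes were higher and 691 lower. With a 4-fold threshold, 0 members were lower, 2 partner genes were higher and 0 lower, and 616 of all genes were higher and 494 lower. With at least 1 CPM in both libraries, 1 member was lower, and 797 of all genes were higher and 583 lower, as fewer genes could be tested. With a filter of 1 read, 12 members were higher, the added one being Serpina3m (0 and 7 reads). Depth limits what can be said of the 46 members under 10 reads.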
